A study of Rattus norvegicus with 9 samples.

Results

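The proteasome genes of rat blood mononuclear cells were described from every array probe whose gene name began with Psma, Psmb, Psmc, Psmd, Psme, Psmf or Psmg. The prefixes found 49 of the 41012 probes on the array, which carried 41 of its 35658 gene names. Of these, 40 genes encode proteasome subunits, regulators or assembly factors, and Psmc3ip, a partner of a recombinase in meiosis, shares the prefix only. The rule reads gene names and no measured value. All 49 probes lay on the chromosome where RefSeq places their gene. No probe carried the name Psmd14, Psmf1 or Psmg4.

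The study measured peripheral blood mononuclear cells (PBMC), the lymphocytes and monocytes left after a Ficoll density gradient, with 1 array for each of 9 male Wistar rats aged 6 months. The 4 control rats (animals 1, 4, 7 and 13) ate standard chow. The 5 cafeteria rats (animals 1, 4, 7, 10 and 13) were offered a hypercaloric, fat-rich cafeteria diet beside the chow for 4 months from 2 months of age, a dietary model of obesity. All rats were bled from the saphenous vein in the fed state, and the authors dropped 1 more control rat because its RNA yield was low. Animals of the same number in both groups are different rats.

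The proteasome is the protease that breaks down proteins tagged with ubiquitin. Its 20S core is a barrel of alpha rings, which gate the entry, around beta rings, which hold the cutting sites, and a 19S cap with a ring of ATPases recognises and unfolds the substrate. Interferon makes cells replace the catalytic subunits Psmb6, Psmb7 and Psmb5 by Psmb9, Psmb10 and Psmb8, which gives the immunoproteasome, and induces the PA28 cap of Psme1 and Psme2. Immunoproteasomes are abundant in leukocytes, where they produce peptides for display on MHC class I.

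Each value below is a log2 ratio of 1 animal's RNA over a common reference pool, so 0 is the level of the pool. A log2 fold change is the cafeteria mean minus the control mean of these ratios, positive where cafeteria was higher. Standard errors (SE), 95% intervals and p-values come from limma, fitted over the 25808 probes whose Cy5 signal passed the background test on 4 or more arrays. The p-values rest on the spread between arrays of 1 animal each, in which differences of animal and of slide cannot be told apart. All 49 proteasome probes were well above background on all 9 arrays and none was saturated.

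The array of control 7 stood apart in these genes and is given here before the results. It held the lowest ratio of the 9 arrays for 24 of the 49 probes, against 15.6% of all probes. Control 4 held the lowest for 12, against 9.11% of all probes. The median over the 41 genes was -0.20 in control 7 and -0.15 in control 4. On the other 7 arrays it lay between -0.06 and -0.01, while the median of all genes in control 7 was 0.02. By the file headers, controls 4 and 7 shared a month of image extraction with cafeteria 4 (median -0.05). All other arrays were extracted in another month. The low values of control 7 spanned the core and the 19S cap: its median ratio was -0.41 for the 3 immune catalytic subunits, -0.32 for the 19S non-ATPase subunits, -0.31 for the alpha ring, -0.26 for the 19S ATPases and -0.20 for the other beta subunits. Its median was -0.004 over the activators, Psme1 at -0.60 among them, and 0.02 over the assembly chaperones. Control 7 was the highest array for the 19S ATPase Psmc6 (0.21 by one probe and 0.55 by the other).

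**Figure D1:**
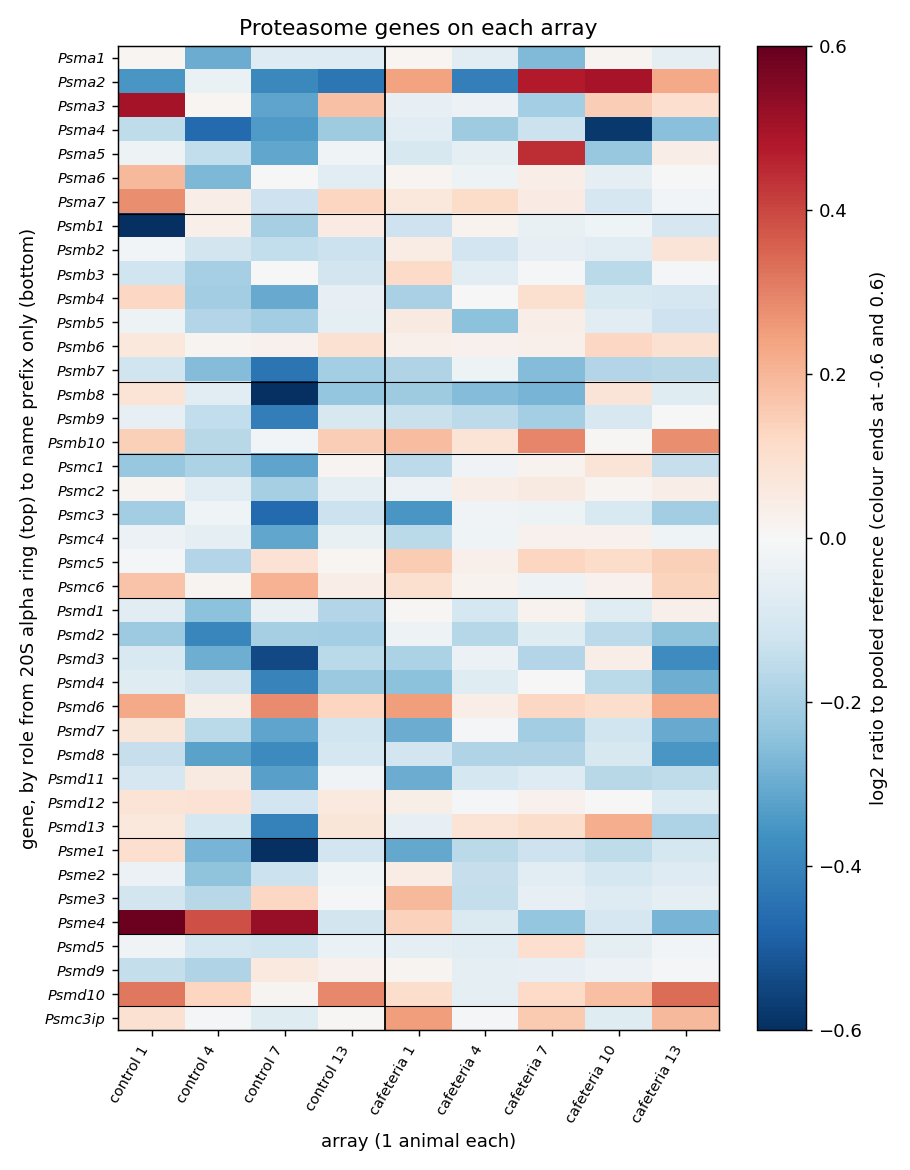
Log2 ratio to the reference pool of each of the 41 genes (rows, 1 probe a gene, grouped by role) on each of the 9 arrays (columns), on a colour scale that ends at -0.6 and 0.6. The column of control 7 is blue over most rows, with a median of -0.20. Psma2 is blue in the left (control) block and mostly red in the right (cafeteria) block, and Psme4 mostly the reverse. Exceptions are cafeteria 4 for Psma2, and control 13 and cafeteria 1 for Psme4.

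No proteasome probe differed between the diets after adjustment over all probes. By limma with Benjamini-Hochberg adjustment, 0 of 49 probes passed an adjusted p of 0.05, the lowest adjusted p among them was 0.997, and 2 probes on the whole array passed (0.00775%). At an unadjusted limma p under 0.05, 2 of 49 probes were called (4.08%), 1 higher and 1 lower in cafeteria rats, where the background was 4.40% of all probes (1.54% higher and 2.86% lower). The share among proteasome probes was thus near that of the array, and counted with 1 probe a gene it was 2 of 41 genes beside 4.07% of all genes. No proteasome probe separated the groups without overlap, which 1.27% of all probes did.

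The fold changes were small and mostly above 0. Over the 41 genes, taking for each the probe with the highest mean signal, the median log2 fold change was 0.05, from -0.46 to 0.51, beside 0.01 over all genes tested. Of these genes, 32 lay above 0 (78.0%), and so did 54.8% of all genes. Over the 49 probes it was 71.4%, beside 54.3% of all probes. It fell to 59.2% without control 7 and to 57.1% without control 4. With the month of image extraction as a block, chosen after seeing the data, it was 65.3%, beside 51.8% of all probes. With the slide as a block in the fit it was 42.9%, beside 50.1% of all probes. Only 2 slides carried both diets, so each value with the slide as a block rests on 4 rats (controls 1 and 13, cafeteria rats 1 and 10). It also leaves controls 4 and 7 out of the difference, and these cannot be told apart from the slides. The 95% interval lay within 0.5 of 0 for 45 of the 49 probes.

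**Figure D2:**
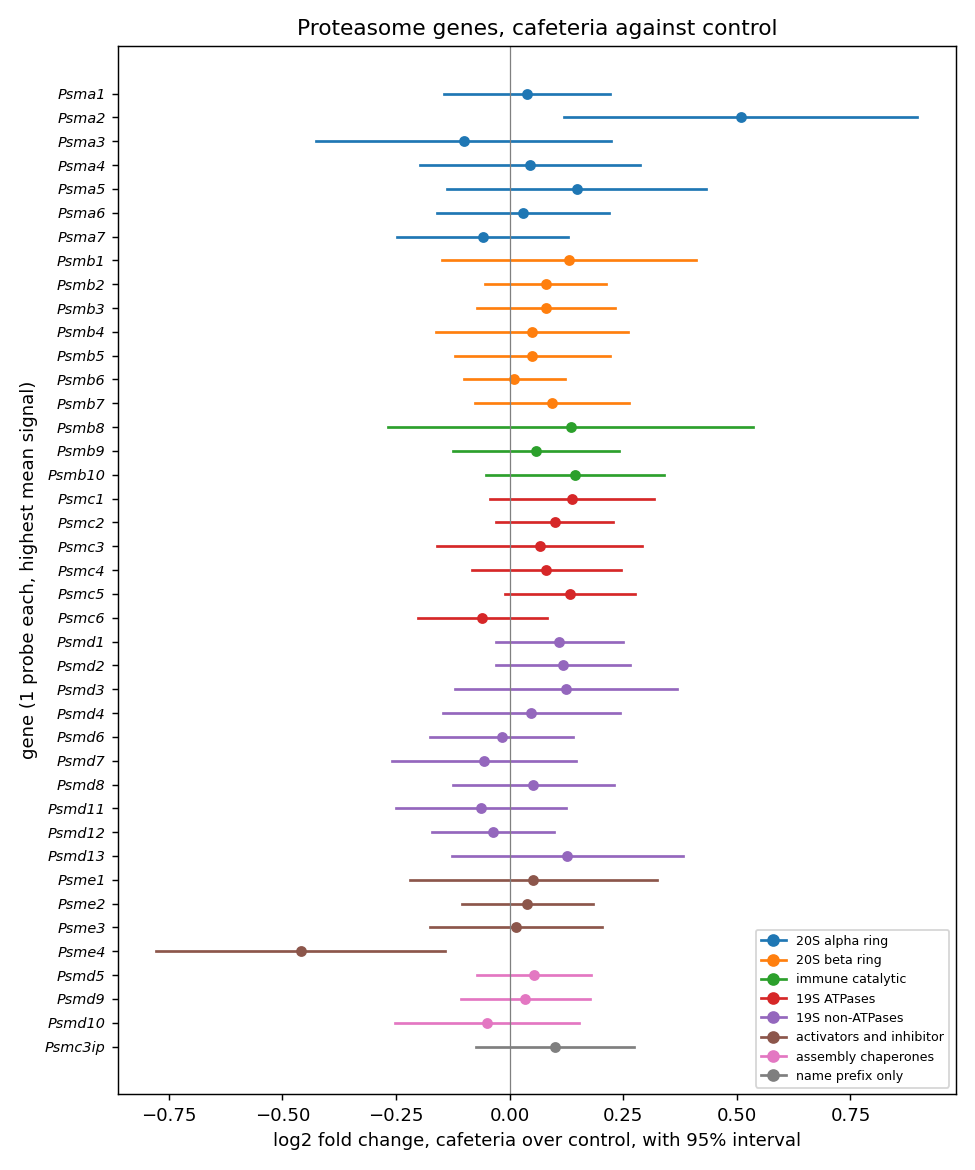
Log2 fold change (x axis, cafeteria over control, 4 and 5 arrays) with its 95% limma interval for each of the 41 genes (y axis, coloured by role). Points cluster just right of 0 with a median of 0.05, and the intervals of Psma2 and Psme4 are the ones that leave out 0 before adjustment.

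In the alpha ring, which opens and closes the barrel, Psma2 had the largest difference of the 41 genes. Its probe lies on chromosome 17, 58736661 to 58738012 on the minus strand (rn4). The ratios were -0.35, -0.04, -0.39 and -0.43 in controls 1, 4, 7 and 13, and 0.24, -0.41, 0.48, 0.49 and 0.23 in cafeteria rats 1, 4, 7, 10 and 13. All controls were below the pool and 4 of the 5 cafeteria rats above it, and cafeteria 4 lay among the controls. The group means were -0.30 ± 0.18 (SD, n = 4) and 0.21 ± 0.37 (SD, n = 5), a log2 fold change of 0.51 (SE 0.17, 95% interval 0.12 to 0.90, limma adjusted p = 0.997), 1 of the 2 calls before adjustment. Without cafeteria 4 it was 0.66, with limma's adjusted p = 0.361. The call before adjustment ended with median centring (0.53), Cy5 alone (0.38), array weights (0.38) and the replicate block (0.44). Of the 2 slides that carried a rat of each diet, 1 gave a difference of 0.59 and the other 0.93. The file headers record image extraction in different months. Among the 6 arrays of one month the difference was 0.75, and among the 3 of the other, which include cafeteria 4, it was -0.19. RefSeq names 2 pseudogenes after Psma2, and whether the probe also reads them was not tested.

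The other alpha genes ranged from -0.10 for Psma3 to 0.15 for Psma5, and the median of the 7 alpha genes was 0.04. For Psma5, cafeteria 7 read 0.45 and the other 8 arrays lay between -0.31 and 0.04, and without that rat its log2 fold change was 0.04. Psma3 ran from -0.32 in control 7 to 0.50 in control 1 within the control group, and its log2 fold change turned to 0.04 without control 1. The 2 probes of Psma6 gave 0.03 and -0.13.

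All 7 constitutive beta genes lay above 0, between 0.01 and 0.13 with a median of 0.08, but 3 did with median centring of the arrays and 4 with the slide as a block. None was at an unadjusted p under 0.05. The 3 that carry the cutting sites were Psmb5 at 0.05 (SE 0.08), Psmb6 at 0.01 (SE 0.05) and Psmb7 at 0.09 (SE 0.08). Psmb6, the caspase-like subunit, was the steadiest of the 41 genes. Its ratios were 0.06, 0.02, 0.02 and 0.09 in the controls and 0.03, 0.03, 0.03, 0.12 and 0.09 in the cafeteria rats, in the animal order used for Psma2. The groups coincided, and the SD over the 9 arrays was 0.04, where the median over all genes was 0.13. Psmb1, a structural beta subunit, had the largest value of the ring, 0.13 (SE 0.13), with control 1 at -0.62 and the other 8 arrays between -0.20 and 0.05, and it was -0.01 without control 1.

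No immune subunit differed between the diets beyond the spread between arrays. The 3 immune catalytic genes lay above 0, but 1 of the 3 did without control 7, with median centring and with the slide as a block. Psmb8, the chymotrypsin-like immune subunit (probe on chromosome 20, 4787980 to 4788039, rn4), read 0.08, -0.07, -0.92 and -0.23 in controls 1, 4, 7 and 13, and -0.21, -0.26, -0.28, 0.08 and -0.07 in cafeteria rats 1, 4, 7, 10 and 13. The control range enclosed that of the cafeteria rats. The means were -0.28 ± 0.44 (SD, n = 4) and -0.15 ± 0.15 (SD, n = 5), and the log2 fold change was 0.13 (SE 0.18, 95% interval -0.27 to 0.54). Without control 7 it was -0.08. The slides that carried both diets gave -0.29 and 0.31, in opposite directions.

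Psmb9, which replaces Psmb6, read -0.05, -0.15, -0.41 and -0.10 in the controls and -0.13, -0.16, -0.21, -0.10 and 0.00 in the cafeteria rats, a log2 fold change of 0.06 (SE 0.08) that was -0.02 without control 7. Psmb10, which replaces Psmb7, read 0.14, -0.17, -0.02 and 0.15 in the controls and 0.19, 0.08, 0.29, 0.01 and 0.28 in the cafeteria rats. No cafeteria rat was below the pool for Psmb10, and 2 of 4 controls were, but the groups overlapped, with a log2 fold change of 0.14 (SE 0.09, 95% interval -0.05 to 0.34). It was 0.08 without control 4, 0.05 without background correction and -0.05 with the slide as a block. With the replicate block it was 0.18 and passed an unadjusted limma p of 0.05.

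The PA28 cap genes gave 0.05 (SE 0.12) for Psme1 and 0.04 (SE 0.06) for Psme2. Psme1 read 0.10, -0.28, -0.60 and -0.12 in the controls and -0.31, -0.16, -0.12, -0.15 and -0.11 in the cafeteria rats, so the controls held both its highest and its lowest value. Without control 7 its log2 fold change was -0.07, and with the slide as a block -0.22. Psme2 stayed between -0.24 and 0.04 on all 9 arrays. In bulk cells, fewer cells of a type and less RNA per cell cannot be told apart for any of these genes.

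**Figure D3:**
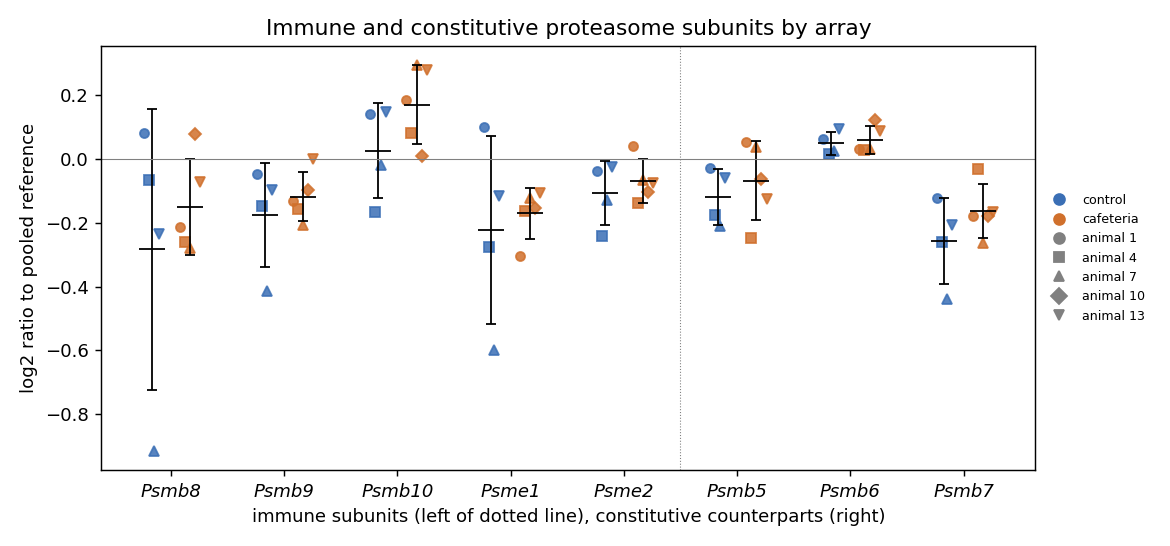
Log2 ratio to the reference pool (y axis) of the 5 immune subunits and the 3 constitutive catalytic subunits (x axis) on each array, controls in blue and cafeteria rats in orange, with a marker for each animal number and the group mean with its SD in black. The groups overlap for all 8 genes, and control 7 (blue triangle) lies far below the others for Psmb8 at -0.92 and Psme1 at -0.60.

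The balance of immune over constitutive subunits was tested within each animal as the difference of the ratios. For Psmb8 minus Psmb5, the 4 controls averaged -0.16 ± 0.38 (SD) and the 5 cafeteria rats -0.08 ± 0.20 (SD), a difference of 0.08. For Psmb9 minus Psmb6 the difference was 0.05, and for Psmb10 minus Psmb7 it was also 0.05. The two-sided exact permutation p-values over all splits of the 9 rats into groups of 4 and 5 were 0.714, 0.635 and 0.659, each 0.714 after Benjamini-Hochberg adjustment over the 3 pairs, where the smallest p possible was 0.00794. Each of the 3 differences changed sign under other settings.

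Among the 9 rats, Psmb8 and Psmb9 varied together, and their probes lie 18301 bases apart on chromosome 20 (rn4). Pearson's r was 0.90 (exact permutation p = 0.00666, 0.0737 after adjustment over the 13 relations computed) and Spearman's rho 0.80 (exact permutation p = 0.0138, adjusted 0.141). Without control 7 and control 1, the arrays farthest from the median of Psmb8, r was 0.51. Psme1 followed both, with r of 0.82 to Psmb8 and 0.83 to Psmb9 (adjusted exact permutation p = 0.0737 each). The first was -0.05 without control 7 and control 1, and the second 0.56 without control 7 and cafeteria 13, its own 2 farthest arrays. Without control 7 alone they were 0.42 and 0.48, so both lean on that array. Psmb10 paired with Psme2 instead (r = 0.74, rho = 0.70, adjusted exact permutation p = 0.0737 and 0.141), and r was 0.33 without control 4 and control 7. Psme1 and Psme2, whose probes lie 9341 bases apart on chromosome 15, gave r of 0.29. The immune Psmb9 and the constitutive Psmb6 gave r of 0.57 and rho of 0.75 (adjusted exact permutation p = 0.246 and 0.141). Without control 7 and cafeteria 13 their r was 0.62. No relation passed the adjustment.

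The promoters of immune genes are shown because interferon is their known inducer. The element searched was the core of the interferon-stimulated element, which IRF factors bind: 2 copies of GAAA with any 2 bases between them, or of TTTC for the opposite strand. RefSeq promoter windows on GRCr8, each spanning a gene's start, were at hand for 38 of the 41 genes. The element was found in 6 of them (15.8%), Psma4, Psmb3, Psmb8, Psmb10, Psmd7 and Psme2, and in 3.92% of all 33469 windows. Psmb10 had it at 2 places, with first bases at -73 and -17 from the start, Psme2 at -53, and Psmb8 on the opposite strand at -4. Psmb9 and Psme1 had no match in the window, which says only that these letters are not there. The Psme1 window ends in tttcgctt, which could begin the opposite-strand form, so a match across that edge would be missed. Capitals mark the element, and in Psmb8 also the letters TTCNNNGAA of the gamma-activated site. That site was in 4 of the 38 windows (10.5%), Psmb8, Psmc6, Psmd3 and Psmd7, and in 8.87% of all windows. The windows are Psmb8 at chr20:4656982-4657281 (minus strand), Psmb10 at chr19:50743243-50743542 (minus strand), Psme2 at chr15:33052702-33053001 (minus strand) and, as the neighbour of Psmb8 without a match, Psmb9 at chr20:4668750-4669049 (plus strand), each printed 5′ to 3′ on the gene's strand.
Psmb8: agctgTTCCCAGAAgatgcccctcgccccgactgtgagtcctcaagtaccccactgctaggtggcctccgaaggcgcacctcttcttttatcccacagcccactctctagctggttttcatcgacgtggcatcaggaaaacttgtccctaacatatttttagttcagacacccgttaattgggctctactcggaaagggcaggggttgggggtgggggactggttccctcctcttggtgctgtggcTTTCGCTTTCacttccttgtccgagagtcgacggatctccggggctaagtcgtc
Psmb10: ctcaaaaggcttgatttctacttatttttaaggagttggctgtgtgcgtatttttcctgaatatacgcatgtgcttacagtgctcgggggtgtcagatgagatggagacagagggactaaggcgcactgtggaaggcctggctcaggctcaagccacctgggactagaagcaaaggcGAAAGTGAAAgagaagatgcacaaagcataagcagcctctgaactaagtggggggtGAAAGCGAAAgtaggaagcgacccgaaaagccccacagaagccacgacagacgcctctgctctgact
Psme2: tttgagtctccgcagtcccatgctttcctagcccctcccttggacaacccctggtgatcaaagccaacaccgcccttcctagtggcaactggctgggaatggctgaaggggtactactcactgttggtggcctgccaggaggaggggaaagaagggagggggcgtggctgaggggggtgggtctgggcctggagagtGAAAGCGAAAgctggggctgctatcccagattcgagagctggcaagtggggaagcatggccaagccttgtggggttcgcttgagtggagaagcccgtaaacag
Psmb9: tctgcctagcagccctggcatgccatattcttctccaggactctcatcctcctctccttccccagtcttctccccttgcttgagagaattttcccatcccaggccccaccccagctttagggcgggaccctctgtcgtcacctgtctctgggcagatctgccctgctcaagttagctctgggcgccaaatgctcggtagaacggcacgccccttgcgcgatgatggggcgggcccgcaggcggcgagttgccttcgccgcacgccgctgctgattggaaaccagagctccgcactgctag

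The antioxidant response element core TGACNNNGC, the letters bound by the proteasome gene regulator Nfe2l1, was in 8 of the 38 windows (21.1%) and in 12.1% of all windows, both strands counted. The 8 genes were Psma3, Psmb2, Psmb5, Psmb6, Psmd1, Psmd3, Psmd9 and Psme4. A relation of the match to expression was not tested. The CCAAT box was in 20 of the 38 windows (52.6%) and in 37.5% of all windows.

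In the 19S cap, 5 of the 6 ATPase genes lay above 0, with a median of 0.09, but 3 did with the slide as a block, and none was at an unadjusted p under 0.05. The smallest p among them was that of Psmc5, with -0.01, -0.17, 0.09 and 0.01 in the controls and 0.15, 0.03, 0.13, 0.11 and 0.14 in the cafeteria rats, a log2 fold change of 0.13 (SE 0.06, 95% interval -0.01 to 0.28), named here after its values were seen. All cafeteria rats were above the pool for Psmc5, and so were 2 of the 4 controls. The exception below 0 was Psmc6 at -0.06.

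Of the 10 non-ATPase cap genes, 6 lay above 0 and 4 below, with a median of 0.05 and a range from -0.06 to 0.13. The scaffold gene Psmd2 gave 0.12 and 0.16 by its 2 probes, and the ubiquitin receptor gene Psmd4 gave 0.05. Psmd11, a scaffold subunit of the lid, was the lowest at -0.06 (SE 0.08), with ratios of -0.10, 0.05, -0.33 and -0.02 in the controls and -0.30, -0.11, -0.08, -0.17 and -0.15 in the cafeteria rats. All cafeteria rats were below the pool for Psmd11, and so were 3 of the 4 controls. Probes of one gene pointed to different sides of 0 for Psma6, Psmd1 and Psmd7, 3 of the 7 genes with more than 1 probe.

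Among the activators, Psme4, the gene of the single-chain cap PA200, had the lowest log2 fold change of the 41 genes, by 1 of its 2 probes. Probe A_44_P219915 (chromosome 14, 111990483 to 111990542, rn4) read 0.59, 0.39, 0.52 and -0.11 in controls 1, 4, 7 and 13, and 0.14, -0.09, -0.23, -0.10 and -0.28 in cafeteria rats 1, 4, 7, 10 and 13. Controls 1, 4 and 7 were above every cafeteria rat, and control 13 was among them. The means were 0.35 ± 0.32 (SD, n = 4) and -0.11 ± 0.16 (SD, n = 5), a log2 fold change of -0.46 (SE 0.14, 95% interval -0.78 to -0.14, limma adjusted p = 0.997), the other call before adjustment. Without control 13 it was -0.61, with limma's adjusted p = 0.654, and with the slide as a block it was -0.22. The call before adjustment ended with that block, with median centring (-0.48) and with array weights (-0.32).

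The other Psme4 probe, A_44_P219919 (111981267 to 111981326), read 0.34, 0.07, 0.28 and -0.13 in the controls and 0.30, -0.06, -0.01, 0.04 and -0.18 in the cafeteria rats. It ordered the controls as the first probe did, but the groups overlapped, and its log2 fold change was -0.12 (SE 0.12, 95% interval -0.38 to 0.14). Within slides, the first probe gave -0.45 and 0.01, and the second -0.04 and 0.17. Psme3, the nuclear PA28 gamma gene, gave 0.01 (SE 0.08).

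**Figure D4:**
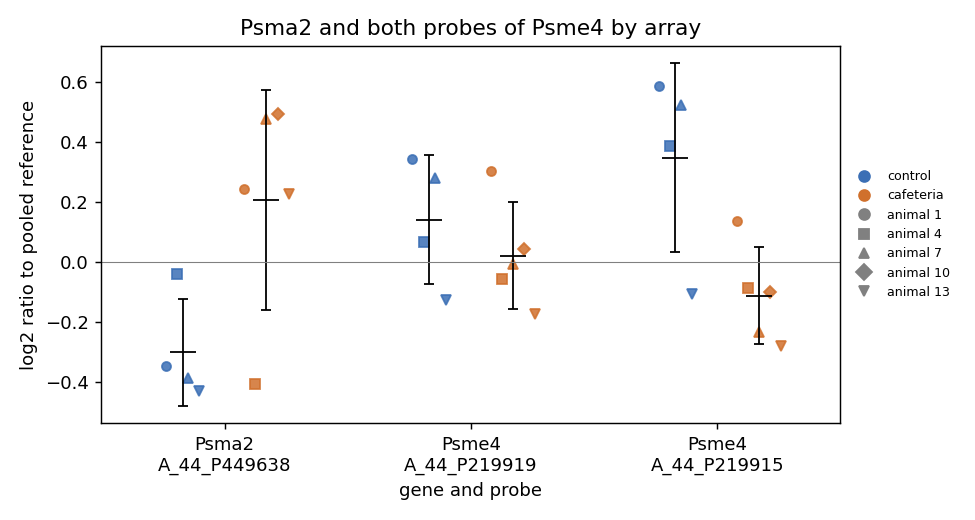
Log2 ratio to the reference pool (y axis) for the Psma2 probe and both Psme4 probes (x axis) on each array, controls in blue and cafeteria rats in orange, with a marker for each animal number and the group mean with its SD in black. In Psma2 only cafeteria 4 (-0.41) sits among the controls, and in Psme4 probe A_44_P219915 only control 13 (-0.11) sits among the cafeteria rats.

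The 3 assembly chaperones of the cap base, Psmd5, Psmd9 and Psmd10, gave 0.05, 0.03 and -0.05. Psmd5 varied little, from -0.12 to 0.10 over the 9 arrays. Gene names updated through RefSeq added the core assembly chaperones Psmg1 at 0.05, Psmg2 at 0.03 and Psmg3 at 0.09, none at an unadjusted p under 0.05. They also added the testis subunit Psma8 and the thymus subunit Psmb11, which were not well above background on any array.

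Around the proteasome, 22 of 25 listed partner names were tested, such as ubiquitin genes, shuttle factors and deubiquitinases. The list counts Sem1 and Ufd1 under an old and a new name. By limma, 14 were higher and 8 lower, with a median of 0.02. At an unadjusted limma p under 0.05 there was 1, beside 4.07% of all genes. This 1 was Ube3c, a ubiquitin ligase of the cap, at 0.14 (SE 0.06, limma adjusted p = 0.997), which was -0.03 as the mean of its probes. The proteasome maturation factor Pomp gave 0.13 (SE 0.08), the cap's ubiquitin receptor Adrm1 0.13 (SE 0.07), the zinc finger gene Zfand5 -0.23 (SE 0.10) and the peptidase Tpp2 -0.14 (SE 0.08).

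Of 16 listed regulators, 14 were tested, 9 higher and 5 lower with a median of 0.06. At an unadjusted limma p under 0.05, 2 genes were lower, as were 2.86% of all probes. Jak1, the kinase of interferon receptors, read 0.55, 0.48, 0.50 and 0.26 in the controls and 0.13, 0.16, -0.04, -0.37 and -0.46 in the cafeteria rats. Every control was above every cafeteria rat, and 1.27% of all probes separated the groups in either direction. The log2 fold change of Jak1 was -0.56 (SE 0.14, limma adjusted p = 0.853). Irf2, an interferon regulatory factor, was at -0.53 (SE 0.21, limma adjusted p = 0.997). The interferon regulatory factors Irf1 and Irf9 gave 0.12 (SE 0.09) and 0.15 (SE 0.07). The proteasome gene activator Nfe2l1 gave 0.08 (SE 0.06), and the stress sensor Keap1 0.18 (SE 0.09).

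Of 14 listed antigen processing genes, 13 were tested, 8 higher and 5 lower with a median of 0.02. At an unadjusted limma p under 0.05, 1 gene was lower, as were 2.86% of all probes. That gene was Calr, the calreticulin chaperone of MHC class I, with 0.75, 0.34, 0.02 and -0.19 in the controls and -0.62, -0.19, -0.58, -0.70 and -0.68 in the cafeteria rats. The groups overlapped at control 13 and cafeteria 4, and the log2 fold change was -0.78 (SE 0.18, limma adjusted p = 0.853). The peptide transporter gene Tap2 gave 0.45 (SE 0.27), with control 1 at -1.50, and 0.17 without that array. The tapasin relative Tapbpl gave 0.12 (SE 0.10) and the trimming peptidase Lnpep -0.16 (SE 0.10), and with 1 array left out they came as near to 0 as 0.04 and -0.05.

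Markers of PBMC types were present, with 7 of 8 T cell, 5 of 6 B cell, 6 of 6 NK and cytotoxic and 6 of 6 monocyte genes tested, and so were 5 of 6 platelet and 4 of 6 red cell genes. The 4 red cell genes lay above 0, each at an unadjusted limma p under 0.05, and their mean ratio ran from -1.19 to -0.68 in controls and from -0.57 to -0.04 in cafeteria rats. NK and cytotoxic markers were above 0 for 6 of 6 genes, 3 of them at an unadjusted p under 0.05 (mean ratio -0.48 to -0.12 in controls and -0.19 to 0.57 in cafeteria rats), and B cell markers for 5 of 5 (-0.30 to 0.16 and -0.27 to 0.43). T cell markers were below 0 for 7 of 7 genes, 2 of them at an unadjusted p under 0.05 (-0.23 to 0.23 and -0.51 to 0.09), and platelet markers for 5 of 5 (-0.41 to 1.29 and -0.79 to 0.36). Monocyte markers were below 0 for 4 of 6 genes, neutrophil markers for 3 of 4 and plasma cell markers for 3 of 3, none at an unadjusted p under 0.05. For comparison, 54.8% of all genes on the array lay above 0. At an unadjusted limma p under 0.05, 1.54% of all probes were higher and 2.86% lower. The part of the marked cell types in the proteasome values was not tested.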

How the data were processed

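Each array carried 1 rat's PBMC RNA in Cy5 and a pooled reference in Cy3 on all arrays alike, per the labels. Per the file headers, the authors' scanner files hold raw spot and background intensity, a log10 ratio and spot quality flags (0 or 1), made with Feature Extraction 9.5.1.1. The authors' deposited value table is on a log2 scale and follows Cy5 (rank correlation 0.993 to 0.999, array medians 9.40 to 9.69). How the reference entered it is unknown.

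Intensities were background-corrected (normexp, offset 50) and loess-normalized within arrays. Outlier spots were dropped and spots of a probe averaged. The 25808 probes well above background on at least 4 arrays were fitted with limma 3.58.1 in R 4.3.3, cafeteria against control, over all 9 arrays, with Benjamini-Hochberg adjustment over all probes. On simulated data with 25723 probes, 91.0% of those changed by 1 log2 unit and 50.0% of those changed by 0.5 passed the adjusted threshold. The simulated noise was normal and independent between probes and arrays, with each probe's own spread. No shift shared by an array or slide was simulated, so these shares are not the power for the proteasome probes. The number of arrays limits the precision. Probe positions are on rn4, per the file headers, and exons are not given there. Gene names are those of the array design, and 37 of 49 member probes matched RefSeq by accession.

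Named genes were the immune and catalytic subunits, members with an unadjusted p under 0.05, the 3 highest and 3 lowest fold changes, the 2 largest and smallest SDs, and the outermost genes of each pathway list. One gene that the rule names is not reported here. The name rule and the lists were chosen with earlier results of these data known. Alternatives covered background, scaling, filter, blocks, weights, probe choice and each array left out. Probe choice was changed for the pathway genes, while the proteasome counts by role kept the probe of highest signal. Figures used matplotlib 3.10.9 with Python 3.11.15.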

Additional observations from a re-analysis of the deposited data

Results flagged for a closer look

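In 8 of the 98 groups of values (8.16%, beside 6.52% over all probes, where chance flags about 1 in 20), 1 array lay far from the others of its diet, and 4 of the 8 were control 7, which held 22.0% of those over all probes. Control 7 was low for Psmc4 (A_44_P213392) at -0.31, where the other controls lay between -0.06 and -0.04. It was also low for Psmd12 at -0.12 and for Psmd2 (A_44_P234636) at -0.90, and high for Psmc6 (A_44_P201385) at 0.55. Control 4 was low for the other Psmd2 probe (A_43_P15715) at -0.39. Cafeteria 1 was low for Psmc4 (A_44_P213392) at -0.16 and for Psme1 at -0.31, and high for Psme3 at 0.19.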

How the results depend on the processing

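No proteasome probe passed an adjusted p of 0.05 under any alternative run, with each array left out included. The count at an unadjusted p under 0.05, 1 higher and 1 lower, became 0 and 0 with median centring. It became 7 higher with the authors' values, whose median over all probes shifted by 0.13, and 2 higher with no filter. It became 0 lower with the slide as a fixed block and with array weights. Leaving out 1 array gave 1 to 2 higher and 1 to 2 lower. The median fold change was 0.21 with the authors' values, -0.0015 with the slide as a fixed block and 0.03 to 0.09 with 1 array left out. The share of probes above 0 was 53.1% with median centring (58.2% of all probes), 95.9% with the authors' values (76.7%) and 79.6% after centring them (51.2%).

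Psma2 and Psme4 probe A_44_P219915 kept their signs under all alternatives run, and Psme4 probe A_44_P219919 turned to 0.066 with the slide as a fixed block. With the slide as a fixed block, Psmb9 was -0.042, Psmb10 -0.048, Psme1 -0.22, Psme2 -0.00052, Psmb6 -0.0015, Psmb7 -0.016, Psma5 -0.14, Psmd5 -0.024, Irf1 -0.039 and Pomp -0.038. With median centring, Psmb9 was -0.045, Psmb10 -0.040, Psme1 -0.063, Psme2 -0.044 and Psmb5 -0.00073. From Cy5 alone, Psme1 was -0.020, Psma5 -0.036 and Tapbpl -0.035. With the authors' values, whose median over all probes was 0.13, Psma3 was 0.033, Psmd11 0.11 and Tpp2 0.043. After centring these values Psma3 and Psmd11 were below 0, and Tpp2 was above 0 under no other alternative. With array weights, Psmb5 was -0.015 and Psmb6 -0.0040, and Ube3c was -0.031 as a mean of probes. With the month of image extraction as a block, chosen after seeing the data, Psme1 was -0.018, Psmb5 -0.0041 and Psmb6 -0.0046. The cause was not tested.

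Psmb10 minus Psmb7 was -0.086 without background correction, -0.23 with median centring, -0.13 from the scanner's log ratio, -0.16 from Cy5 alone, -0.11 with the authors' values, centred or not, and -0.032 with the slide block. Psmb9 minus Psmb6 was -0.051 with median centring, -0.030 from Cy5 alone, -0.0084 with the authors' values, centred or not, and -0.041 with the slide block, where Psmb8 minus Psmb5 was -0.032. With 1 array left out, the pairs ran from -0.096 to 0.18 (Psmb8), -0.023 to 0.086 (Psmb9) and -0.012 to 0.11 (Psmb10). Fold changes then ran from -0.077 to 0.26 (Psmb8), -0.021 to 0.10 (Psmb9), 0.080 to 0.18 (Psmb10), -0.073 to 0.16 (Psme1), -0.0050 to 0.067 (Psme2), -0.0052 to 0.025 (Psmb6) and -0.24 to 0.035 (Psma3).

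Rats of the same replicate number showed little correlation (-0.05, 0.11, 0.10 and -0.15). These values cannot show whether the numbers pair animals, which the labels do not state. With the replicate block, Psmb6 was -0.0052. The counts of 1 higher and 1 lower stayed, but the higher call was Psmb10 (0.18) in place of Psma2 (0.44).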
